A study of Mus musculus with 36 samples.

Results

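The 465 chromatin regions described here were less accessible in every Actl6b knockout culture than in any wild-type culture. They were chosen from 76570 regions measured by ATAC-seq in cultured mouse cortical neurons. ATAC-seq uses the Tn5 transposase to cut and tag DNA that is not packed in nucleosomes, so the number of reads in a region rises with its accessibility. Each count was divided by its library's sum and given as CPM, the count per 1000000 counts of the library. A region was taken when it lay on chromosomes 1 to 19, had a mean of at least 2 CPM over 12 libraries, and had its highest knockout value below its lowest wild-type value. Of 68436 regions that could meet the rule by position and level, called eligible below, 0.679% met it. The opposite pattern, the lowest knockout value above the highest wild-type value, held for 466 regions or 0.681%.

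The neurons came from the cortex of E16.5 embryos and were kept for 7 days in vitro. All 12 cultures had 2 h of TTX and APV before collection. TTX blocks voltage-gated sodium channels and APV blocks NMDA receptors, so the cultures were compared in a silenced state. The 5 wild-type (WT) libraries carry the culture codes 3-4, 3-7, 4-2, 4-3 and 4-4. The 7 knockout (KO) libraries, labelled ACTL6B -/-, carry 1-1, 2-3, 3-2, 3-3, 3-5, 4-7 and 4-8. Each library was made from 55000 neurons, and the series describes the cultures as biological replicates. Neither Actl6b levels nor cell type markers were analysed here, and the genotypes are as labelled. The regions carry no gene names, and the series' RNA-seq libraries with the same culture codes were not used. In bulk libraries such as these, fewer cells of a type and less accessibility per cell cannot be told apart.

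ACTL6B, also called BAF53b, is an actin-like protein and a part of BAF, a chromatin remodelling complex, in neurons. BAF complexes use ATP to slide or evict nucleosomes and so open promoters and enhancers to other proteins. When neural progenitors leave the cell cycle, ACTL6A is exchanged for ACTL6B, and the resulting neuronal BAF complex is known for roles in dendrite growth and in gene responses to activity. Accessible regions in neurons are mostly promoters and enhancers. Which of these the 465 regions are, and which genes lie near them, was not analysed here. All coordinates are mm9, as told from the region ends and chromosome names, and count from 1.

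The choice itself used the KO against WT contrast. Every KO against WT value of the chosen regions is therefore a description, given without a test, and the non-overlap of genotypes is no finding. The size of the differences in the libraries used is part of the choice too, and is larger there than in libraries left out of it. What the rule did not use is the width of a region and its place in the genome.

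The regions were lower in KO but not closed. Their median WT level was 14.4 CPM and their median KO level 9.10 CPM. The KO mean was 65.9% of the WT mean in the median region and ranged from 29.8% to 90.1%. In 310 of the 465 regions the KO mean lay between 50% and 75% of WT. In 111 it was at least 75% of WT, and in 44 it was at most 50%. The KO mean was under 2 CPM in 10 regions (2.15%), against 0.609% of eligible regions. A count of 0 in any KO library was seen in 1 region (0.215%), against 0.335% of eligible regions. The minimum on the mean bears on these counts, since no eligible region had a KO mean under 1.14 CPM. The KO mean was above 7.64 CPM, the median KO mean of all eligible regions, in 264 of the 465. Per kilobase the median level was 16.3 CPM in WT and 10.1 CPM in KO, where the eligible regions had 10.4 and 10.3 CPM per kilobase. Per kilobase, then, the median of the regions stood above that of the eligible regions in WT and near it in KO. In CPM it stood above in KO too, at 9.10 against 7.64. The rule favours high WT and low KO values, so this pattern is partly set by the choice.

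**Figure D1:**
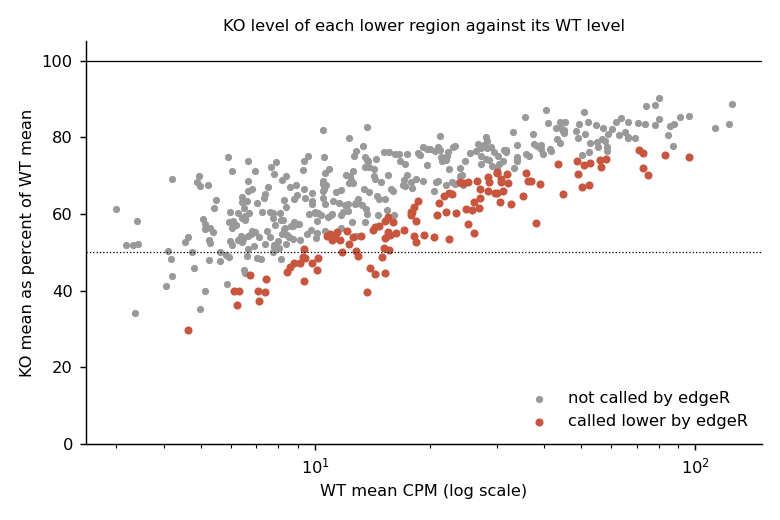
Each point is 1 of the 465 regions, with its WT mean in CPM on a log axis and its KO mean as a percent of WT. Solid and dotted lines mark 100% and 50%, and red points are the 120 regions called lower by edgeR. The percentages run from 29.8% to 90.1% and lie nearer to 100% at high WT levels, a pattern the rule itself favours.

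The rule needs all 7 KO libraries to be low, so like values among them are part of the choice. On a log2 scale against each region's WT mean, the median over the 465 regions was -0.57 in KO 1-1, -0.58 in KO 2-3 and -0.62 in KO 3-2. It was -0.62 in KO 3-3, -0.52 in KO 3-5, -0.56 in KO 4-7 and -0.55 in KO 4-8. In the WT libraries the same median lay between -0.04 and 0.01. The medians of all eligible regions lay between -0.08 and 0.02 in all 12 libraries, so the offset of the KO libraries was not shared by the eligible regions at large. The 465 regions held 1.045% ± 0.0154 of all counts in WT libraries (SD, n = 5) and 0.755% ± 0.0184 in KO libraries (SD, n = 7). WT shares ran from 1.03% to 1.07% and KO shares from 0.729% to 0.782%, as the choice fixes. No single culture set the limits. The lowest WT value came from WT 4-4 in 109 regions, from WT 3-7 in 98 and from each of the other 3 WT libraries in 86. The highest KO value came most often from KO 3-5 (91 regions) and KO 2-3 (85), and least often from KO 3-3 (45).

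**Figure D2:**
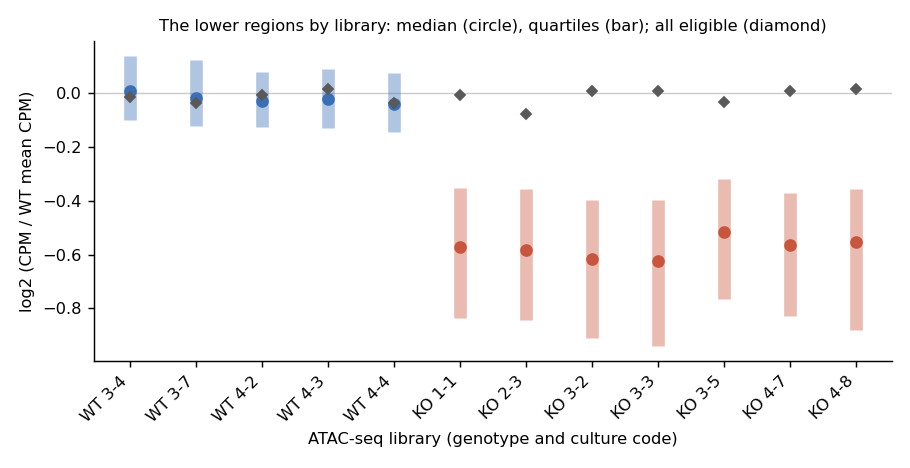
For each ATAC-seq library the circle is the median, over the 465 regions, of log2 CPM relative to the region's WT mean, and the bar spans the quartiles. Diamonds are the same median over 68436 eligible regions. The KO circles lie between -0.62 and -0.52, and the diamonds stay between -0.08 and 0.02.

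Depth and library quality were compared between the genotypes. WT libraries held 4679644 to 7262297 counts in regions and KO libraries 5296643 to 7040224. The top 10% of eligible regions by level took 39.3% to 42.5% of counts in WT and 37.8% to 43.9% in KO. Neither totals nor this share separated the genotypes (two-sided exact permutation over 792 splits, p = 0.191 and 0.400, adjusted 0.286 and 0.400 over 3 quantities). Regions without a count numbered 540 to 889 in WT and 85 to 668 in KO, with means of 688 and 357 (p = 0.029 in the same permutation test, adjusted 0.0871). The part of these empty regions in the result was not tested. KO 3-2 and KO 3-3 had the fewest, 139 and 85. Without these 2 libraries 743 regions met the rule in place of 465, and their median log2 ratio was -0.61. Fewer libraries make the rule easier to meet, and the rule fixes the sign of this ratio. Neither value therefore tests the part of the empty regions. Among KO libraries the share of counts in the 465 regions mostly rose with the share in the top 10%. It was 0.729% at 37.8% in KO 3-3, 0.782% at 42.1% in KO 3-5 and 0.772% at 43.9% in KO 2-3. WT libraries showed no such order, with 1.07% at 41.2% in WT 3-4 and 1.03% at 42.5% in WT 4-4. This relation was not tested.

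The median log2 ratio of KO to WT was -0.60 over the 465 regions and 0.01 over the eligible ones. Among cultures whose code starts with 3 (2 WT, 3 KO) it was -0.61, and among those starting with 4 (3 WT, 2 KO) it was -0.57. It was -0.58 among the 7 libraries with counts on chromosome Y (3 WT, 4 KO) and -0.61 among those without. The rule puts every KO value below every WT value, so each of these subsets had to give a negative ratio. What a first number marks is not stated in the labels, and KO 1-1 and KO 2-3 are each alone in theirs.

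To read libraries that took no part in a choice, each was set aside in turn, regions were chosen by the same rule in the other 11, and the library set aside was then read. With a KO library set aside, 558 to 755 regions were chosen, and 83.2% to 94.5% of them lay below the WT mean in that library. Over eligible regions 48.9% to 56.6% did. The library lay below every WT library in 61.6% (KO 2-3) to 83.3% (KO 3-3) of the chosen regions, against 17.2% to 21.8% of eligible regions. For each KO library these were the 465 regions themselves, so this share only restates how many regions the other 11 libraries admit. The median log2 difference of the library set aside from the WT mean was -0.52 in KO 3-3 and -0.32 in KO 2-3, the largest and the smallest. The KO libraries used for the choice stood at -0.63 to -0.58. With a WT library set aside, 702 to 888 regions were chosen, and the library lay above the KO mean in 76.2% (WT 4-3) to 89.7% (WT 4-4) of them. Its median log2 difference from the KO mean was 0.30 to 0.41, against 0.60 to 0.61 in the WT libraries used. Each of the 12 medians was nearer to 0 than that of the libraries of its own genotype that had been used to choose. The mean that a library was read against came from libraries used in the choice, which selects high WT or low KO values. A library with no difference between genotypes could then also fall on its own side, and the shares over eligible regions are not the values to be had without a difference. These readings are a description of how far the choice widened the difference.

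**Figure D3:**
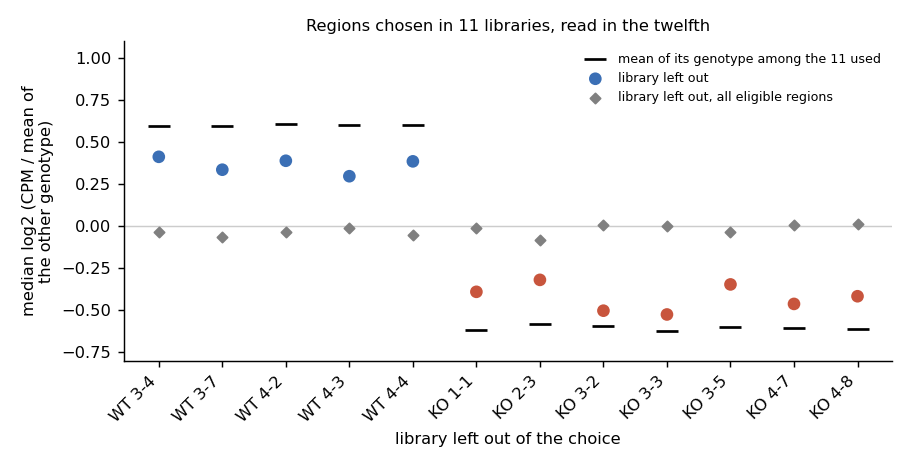
Regions were chosen by the rule in 11 libraries and read in the library named on the horizontal axis. Circles are the median log2 ratio of that library to the mean of the other genotype, dashes the same for the libraries of its own genotype that were used, and diamonds the library's median over all eligible regions. Circles run from 0.30 to 0.41 in WT and from -0.52 to -0.32 in KO, between the dashes and 0.

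A choice in one code group and a reading in the other shares no library. In cultures with a code starting with 3, 9588 of 68792 regions (13.9%) had all KO values below all WT values. Read in the cultures starting with 4, these had a median log2 ratio of -0.15, with 68.2% below 0, where all regions of that selection base had 0.02 and 47.4%. The genotypes again did not overlap in 22.0% of them, against 11.8% of all. In the other direction, 8075 of 67970 regions (11.9%) were chosen in cultures starting with 4. Read in those starting with 3, their median was -0.18, with 70.7% below 0 against 47.5% of all, and 26.1% without overlap against 14.0%. Both readings went the same way as the choice, with medians of -0.15 and -0.18 where the libraries used to choose had -0.55 and -0.50. Regions without a count also differed the same way in both groups. With codes starting with 3 they numbered 889 and 879 in WT and 139, 85 and 609 in KO. With codes starting with 4 they numbered 552, 540 and 579 in WT and 223 and 286 in KO. The part of this in the readings was not tested. Fewer libraries also make the rule easier to meet, so the shares chosen are not read.

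Single regions show the scale of the data. The 8 regions with the widest gap, meaning the largest ratio of the lowest WT to the highest KO value, lie on 8 chromosomes. The widest is a 643 bp region on chromosome 7 at 74830467 to 74831109. Its WT values were 7.10 CPM in 3-4, 4.06 in 3-7, 3.62 in 4-2, 3.44 in 4-3 and 4.96 in 4-4. Its KO values ran from 0.601 (2-3) to 1.89 (1-1), with a median of 1.44 CPM. The lowest WT library was thus 1.82 times the highest KO library, on 19 and 10 counts, and the KO mean was 29.8% of WT, the lowest of all 465 regions. edgeR's fitted log2 fold change was -1.77 (SE 0.411).

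The second, a 738 bp region on chromosome 11 at 36802464 to 36803201, had 19.4 CPM in WT 3-4, 10.5 in 3-7, 11.8 in 4-2, 13.8 in 4-3 and 13.2 in 4-4. KO libraries ran from 3.18 to 6.61 CPM with a median of 5.88. WT 3-4 was the highest library in both regions, and leaving it out changed the log2 ratio of the second from -1.33 to -1.17. The third, 389 bp on chromosome 3 at 153808787 to 153809175, had 6.33, 8.55, 8.46, 6.52 and 5.51 CPM in WT 3-4, 3-7, 4-2, 4-3 and 4-4. Its KO values lay between 0.752 and 3.75 CPM, with a median of 3.03 and KO 2-3 the lowest. Both genotypes spread over several CPM here, and the gap between them was 1.47-fold.

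On chromosome 10 at 111003700 to 111004531 (832 bp) the WT libraries held 15.7, 13.7, 14.5, 18.7 and 15.7 CPM in the same order. The KO libraries held 6.31 to 9.53 CPM, median 8.22, and the KO mean was 50.7% of WT. On chromosome 17 at 31134282 to 31134860 (579 bp) the WT libraries held 8.25, 10.04, 8.00, 7.61 and 6.75 CPM. KO values there ran from 1.42 in KO 3-3 to 4.76, median 4.26, so that 6 KO libraries lay close together and 1 far below them. It is the only one of the 8 that edgeR did not call.

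On chromosome 4 at 12280313 to 12281232 (920 bp) WT values were 18.2, 20.9, 16.6, 19.6 and 16.52 CPM, and KO values 6.30 to 11.9 CPM with a median of 10.01. On chromosome 8 at 106185132 to 106185547 (416 bp) they were 6.91, 5.56, 8.61, 7.07 and 8.67 CPM in WT and 0.576 to 4.09 CPM, median 3.16, in KO. On chromosome 16 at 40968120 to 40968925 (806 bp) they were 13.6, 15.6, 14.5, 16.7 and 15.3 CPM in WT and 6.13 to 10.1 CPM, median 7.93, in KO. The chromosome 16 region had the tightest WT values of the 8, 15.1 ± 1.15 CPM (SD, n = 5), against 7.75 ± 1.33 CPM in KO (SD, n = 7). In all 8 the KO mean was 29.8% to 52.6% of WT, and all 8 met the rule under each of the 4 scalings compared in the closing section. The 8 were picked for a wide gap, which favours both results.

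**Figure D4:**
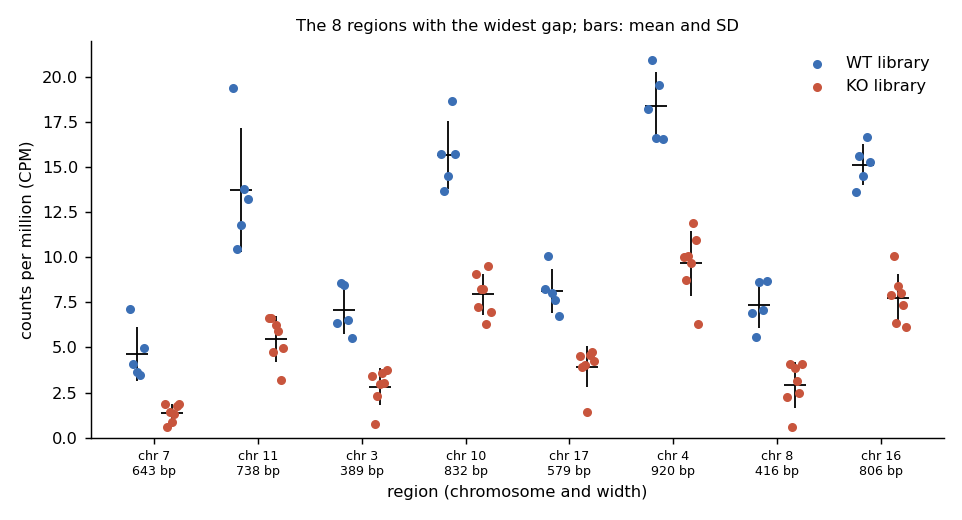
Each point is 1 library's CPM in 1 of the 8 regions with the widest gap, named by chromosome and width, with WT in blue and KO in red. Crossbars are the mean and SD of 5 WT and 7 KO libraries. In each region the lowest WT point is above the highest KO point, by 1.35 to 1.82 times.

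The 5 regions with the lowest KO to WT ratio, which include the chromosome 7 region above, were small and weakly covered. A 318 bp region on chromosome 14 at 117341035 to 117341352 had 5.76, 1.92, 3.78, 1.99 and 3.31 CPM in the WT libraries, in the order used above, and 0.576 to 1.70 CPM in KO. Its lowest WT value rests on 9 counts and its highest KO value on 12. A 361 bp region on chromosome 3 at 7803466 to 7803826 had 4.98 ± 1.47 CPM in WT and 1.75 ± 0.945 in KO, 35.1% of WT. A 335 bp region on chromosome 6 at 29399941 to 29400275 had 6.23 ± 1.38 CPM in WT and 2.26 ± 1.07 in KO. A 646 bp region on chromosome 4 at 3902198 to 3902843 had 7.14 ± 1.27 and 2.67 ± 0.900 CPM (SD, n = 5 and 7 in all 3). edgeR called neither the chromosome 14 region nor this chromosome 3 region.

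At the other end, the regions most accessible per kilobase lost little. The highest was a 1941 bp region on chromosome 2 at 39045111 to 39047051, with 49.7 CPM per kilobase in WT and 42.5 in KO. In CPM its WT values were 116, 87.6, 91.2, 91.0 and 96.5 and its KO values 78.3 to 87.6, so the highest KO and the lowest WT library nearly met. The other 4 of the top 5 were a 2465 bp region on chromosome 18, regions on chromosome 5 at 34511597 to 34512915 and at 86600878 to 86602667, and one on chromosome 12 at 29975222 to 29976353. Their KO means were 80.1% to 86.5% of WT, and none of the 5 was called by edgeR or met the rule under all 4 scalings. The 3 widest regions were 4805 bp on chromosome 7 at 20332671 to 20337475, 4773 bp on chromosome 18 and 4343 bp on chromosome 16 at 77235555 to 77239897. The last had 75.1 ± 6.01 CPM over 5 WT libraries and 52.6 ± 3.80 CPM over 7 KO libraries (mean ± SD), 70.1% of WT, and its lowest WT library was 1.15 times its highest KO library.

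The edge of the rule is thin. The median ratio of the lowest WT to the highest KO value was 1.05, and it was at least 1.2 in 39 regions. In 115 regions it was under 1.02. Just inside, a region on chromosome 1 at 16093735 to 16096874 had 81.183 CPM in KO 1-1 and 81.186 in WT 3-4. Others at the edge were on chromosome 8 at 49182507 to 49183327 and on chromosome 14 at 45837573 to 45841214. Just outside were regions on chromosome 4 at 151351473 to 151354402, on chromosome 3 at 31800483 to 31802355 and on chromosome 14 at 60059076 to 60060582. The first of these had 24.789 CPM in KO 3-2 and 24.788 in WT 3-7, and its means, 27.3 in WT and 21.2 in KO, are like those of regions inside. At the lower limit of 2 CPM the nearest regions inside were the chromosome 14 region of 318 bp, at a mean of 2.06 CPM, and one on chromosome 10 at 29058525 to 29058781, at 2.30 CPM. Among 6886 autosomal regions under 2 CPM only 1 had non-overlapping genotypes in this direction, on chromosome 16 at 46205491 to 46205949, at 1.57 CPM.

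The lowest WT value rested on a median of 70 counts and the highest KO value on 76. The exact Poisson 95% intervals of these 2 counts overlapped in all 465 regions, which does not show that a gap lies within counting error. For the summed counts of each genotype the intervals were apart in 464 regions, as the choice favours. Intervals cover counting error only.

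The edgeR quasi-likelihood test over 73346 regions called 0.285% lower in KO at an adjusted p under 0.05, 209 in all. It called 120 of the 465 regions (25.8%) lower. Higher calls made up 0.525% of all regions tested and 0 of the 465. Nothing is read from this count, since the rule used the same contrast. Called regions were 25 of the 44 whose KO mean was at most 50% of WT and 3 of the 111 at 75% or more. Of the 209, 85 were eligible regions whose genotypes overlapped. Among the same 465 regions the count was 26, 50, 48 and 22 in fits without WT 3-4, 3-7, 4-2 or 4-4. It was 147 without WT 4-3. It was 181 without KO 2-3, and 49, 49, 54 and 69 without KO 3-2, 3-3, 4-7 or 4-8. Without KO 1-1 or KO 3-5 it was 100 or 123. It was 216 by DESeq2 with all libraries. The share of all regions called in these other fits is not given here, so their counts are not read as particular to the 465.

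The rule did not name the kind of region, apart from the minimum level, but it favours regions with a low spread between libraries. The 465 regions were wider than the eligible ones, with a median of 918 bp against 774 bp, and 776.5 bp for the 466 regions higher in every KO culture. Of the 465, 14.2% were at least 2000 bp wide, against 9.87% of eligible and 9.01% of higher regions. Their mean level was 11.4 CPM against 7.60 CPM, and 7.76 CPM in the higher regions. Eligible regions were cut at the quartiles of their mean level into 4 classes. In the lowest class 0.281% were lower in every KO culture, and in the second, the third and the top class 0.584%, 0.783% and 1.07%. The regions higher in every KO culture made up 0.596%, 0.725%, 0.772% and 0.631% of the same classes. By level per kilobase the share rose from 0.175% to 1.12% for the lower regions, while the higher regions stood at 0.742% in the bottom and 0.660% in the top class. The share of lower regions thus rose with level, while higher regions were spread over all levels. These classes use the same CPM values as the rule, so the rise is not read as a property of the sites. How far the preference for a low spread makes it was not tested. No test was made over regions, and the part of counting depth in this rise was not tested.

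**Figure D5:**
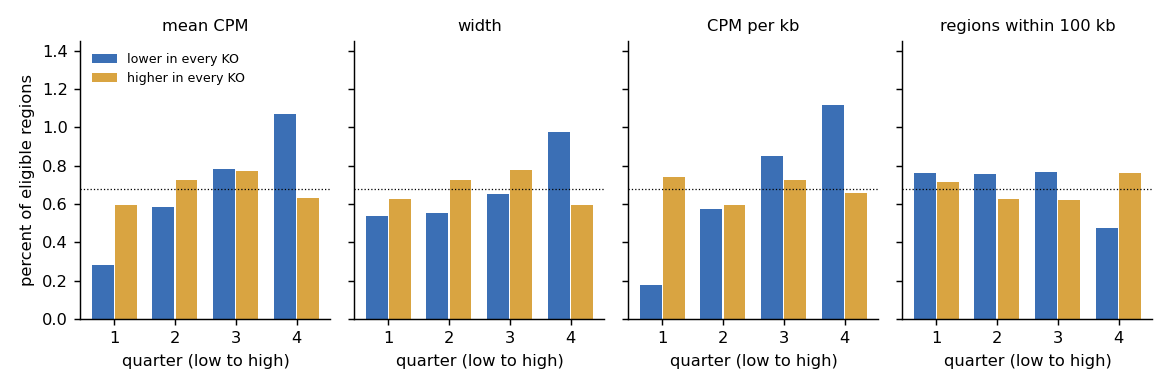
Eligible regions were cut at the quartiles of mean CPM, width, CPM per kilobase and number of regions within 100 kb, and bars give the percent that were lower (blue) or higher (yellow) in every KO culture. The dotted line is 0.679%, the share of lower regions among all eligible ones. Blue bars rise from 0.281% to 1.07% with mean CPM and from 0.175% to 1.12% with CPM per kilobase.

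Within the 465 regions the ratio differed by level, in values that the rule used. The median KO level was 51.9% of WT in the bottom class of mean level, 56.8% and 62.6% in the second and the third, and 75.6% in the top class. By width it was 54.4% in the narrowest and 76.1% in the widest class. The WT libraries varied little in these regions, with a median SD of log2 CPM of 0.17 (n = 5), against 0.38 in eligible regions. The KO libraries had 0.26 (n = 7) against 0.40. The choice favours a low spread, and where the spread between libraries is wide it lets only large differences pass, so neither pattern is read as a property of the regions.

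The regions lay on all 19 autosomes. Chromosome 8 had the largest share of its eligible regions among them, 34 of 3594 (0.946%), followed by chromosome 14 with 28 of 3033 (0.923%) and chromosome 1 with 45 of 5154 (0.873%). The smallest shares were on chromosome 19, 5 of 1719 (0.291%), and chromosome 11, 13 of 4213 (0.309%). The regions higher in every KO culture had their largest shares on those same chromosomes, 11 (0.997%) and 19 (0.989%). Both sets thus differed most on chromosomes 11 and 19, in opposite ways. Regions in crowded surroundings were less often lower: 0.472% of the class with the most regions within 100 kb, against 0.759% to 0.768% in the other 3 classes. The higher regions had 0.764% in that crowded class.

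The 465 regions were also described by how near they lay to each other. Within 50 kb of each other there were 4 pairs and no larger group, and 8 regions (1.72%) had a partner at that distance, against 2.51% of eligible regions with one of the 465 that near. Within 100 kb it was 34 regions, 7.31%, against 4.94% of eligible regions. That share was 4.77% with counts thinned to the smallest total, and 7.21% to 12.3% among the regions chosen without 1 library. Those sets held 377 and 558 to 888 regions. The share rises with the number of regions in a set, so these values cannot be set against 7.31% or 4.94%. Spacing was not tested, and no clustering is read from it. Within 500 kb 24.7% of the 465 had a partner, against 21.2% of eligible regions. The closest pair is on chromosome 13, at 45042100 to 45042686 and 45042689 to 45042937, 2 bp apart, with 9.72 and 4.63 CPM in WT and 5.42 and 2.50 in KO. The other pairs, 27870 to 34882 bp apart, lie on chromosome 5 (151043836 to 151044658 and 151072529 to 151073216), chromosome 7 (109081762 to 109083011 and 109117894 to 109120118) and chromosome 14 (22040630 to 22041944 and 22072511 to 22073165). Regions higher in every KO culture lay within 500 kb of 15.5% of the 465, against 22.6% of eligible regions.

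Regions near the 465 that belonged to neither set were slightly lower in KO too. The median log2 ratio was -0.03 for 378 regions within 10 kb, -0.04 for 1322 regions at 10 to 50 kb and -0.04 for 1631 at 50 to 100 kb. It was -0.01 at 100 to 500 kb and 0.02 for the 53157 regions farther away. Below 0 were 54.2%, 55.4% and 54.7% within 100 kb, and 47.0% beyond 500 kb. The 3331 neighbours within 100 kb took 4.75% to 4.81% of counts in WT libraries, with a median of 4.76%, and 4.57% to 4.68% in KO, with a median of 4.63%. The 2 genotypes did not overlap in this share. Near the higher regions the shift was the opposite, 0.09 within 10 kb for 475 regions, with shares of counts within 100 kb that overlapped (6.35% to 6.66% in WT, 6.52% to 6.82% in KO). The neighbours come from the same libraries and contrast as the choice, and no test was made of them.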

How the data were processed

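The deposited ATAC-seq files hold whole-number read counts per region, 1 file per library, over the same 76570 regions. Tools named in the submitters' processing notes, with no role or order, include Trim Galore, Bowtie2, MACS2 and bedtools, and builds mm9 and mm10. The authors' choice of regions, read filters and any shift of reads to the Tn5 insertion site are not given in the sources used here. Starts in the files were raised by 1. No 2 libraries held identical counts. CPM was the count over the library sum. Counts of all regions were tested in KO against WT with edgeR 4.0.16 in R 4.3.3 (TMM, filterByExpr, robust quasi-likelihood F-test, Benjamini-Hochberg adjustment, threshold 0.05), after checks on simulated counts. Each SE is the log2 fold change divided by the root of its F value. DESeq2 1.42.0, other scalings, thinned counts, a covariate and leaving out libraries were alternatives. limma 3.58.1 gave the cyclic loess scaling, with a prior count of 2.

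The regions and comparisons were chosen with earlier results of these data known. Named were the 8 regions with the widest gap, the 5 with the lowest KO to WT ratio, the 5 most accessible per kilobase, the 3 widest, groups of 3 or more within 50 kb (there were none), and those nearest the limits. Library totals of 4679644 to 7262297 counts limit precision, most of all under 5 CPM. RNA-seq libraries, sequence content and genes near regions were not used here. Coordinates of 2 regions on chromosome 18 are not reported here.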

Additional observations from a re-analysis of the deposited data

Results flagged for a closer look

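In 1 of the regions named above a KO library stood apart from the other 6 by Dixon's criterion at 95%. On chromosome 17 at 31134282 to 31134860, KO 3-3 had 1.42 CPM and the nearest other KO library 3.91 CPM. Groups of values examined this way numbered 54, and chance flags about 1 in 20. Over all 465 regions 49 of 930 genotype groups (5.27%) held such a library.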

How the results depend on the processing

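The median log2 ratio of the regions stayed between -0.63 and -0.57 under every alternative run except a minimum of 5 CPM, which gave -0.55. Each of these runs used regions chosen by the rule, so the sign of this median was fixed in advance. Between 463 and 493 regions met the rule with TMM, DESeq2 size factors or cyclic loess in place of library sums, sharing 352 to 398 with the 465, and 326 met it under all 4 scalings. With counts thinned to the smallest total 377 did, of which 266 were among the 465, and 7.31% with a partner within 100 kb became 4.77%. A lowest WT value at least 1.2 times the highest KO value left 39 regions, and Poisson intervals that do not overlap left 0. Leaving out 1 library and choosing again gave 558 to 888 regions, 24 to 273 of them called lower, and 7.21% to 12.3% with a partner within 100 kb. Fewer libraries make the rule easier to meet, and the share with a partner rises with the number of regions chosen. Among the same 465 regions such fits called 22 to 181, counted after seeing the data. Without KO 3-2 and KO 3-3, chosen after seeing the data, 743 regions met it and 18 were called, 17 of them among the 465. DESeq2 called 216 of the 465, and 19 passed at 0.01. The share of all regions called under an alternative is not given here. Partners within 50 kb and 500 kb were at 1.72% and 24.7%. Other alternatives kept each count within 1.5 times. For single named regions, 383 log2 ratios under alternatives moved by less than 1 SD and 1 moved by more. None changed sign, which the rule fixes in advance wherever a library is left out. No paired analysis was possible because the WT and KO libraries compared share no culture code. They share only first numbers, and with that number as a covariate 146 of the 465 were called.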
